A study of Mus musculus with 8 samples.

Results

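The genes followed here mark or build the trophectoderm and were measured in 8 libraries of mouse embryonic stem cells. They are the AP-2 factors Tfap2a and Tfap2c, the GATA factors Gata2 and Gata3, the surface protein gene Plet1, and the regulators Hand1, Cdx2, Elf5, Eomes and Tead4. They were taken by name, 10 of the 55421 genes in the table, and all 10 had an entry. Polyadenylated RNA was sequenced from its 3′ end in E14 cells of 129/Ola background, kept on gelatin in medium with serum and leukaemia inhibitory factor. KO cells lack the microRNA cluster miR-290-295 and WT cells carry it, and both were untreated. The other 4 libraries are KO cells transfected with 5 nM of a siPOOL, a mixture of small interfering RNAs, and harvested after 36 hours. The siTfap4 pool targets the transcription factor gene Tfap4, and the siNeg pool is the negative control. Each group has 2 libraries, described as biological duplicates. The untreated libraries carry further tags of unstated meaning in their titles, 1 of which a KO and a WT library share. By the series' design text, KO and WT were prepared and sequenced as one set and siTfap4 and siNeg as another, so levels are compared within a set, and the set and the transfection cannot be told apart between untreated and siNeg KO cells. No group restores the cluster, and nothing in the labels says whether KO cells come from 1 clone.

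The trophectoderm is the outer layer of the blastocyst and the source of the placental trophoblast. In the mouse embryo TEAD4 switches on Cdx2 and Gata3 in outer cells, where low Hippo signalling lets its coactivator YAP into the nucleus, while EOMES, ELF5 and TFAP2C later hold the trophoblast stem cell state. Embryonic stem cells come from the inner cell mass, where OCT4 (Pou5f1) and other factors keep this programme low. Several of these genes also work elsewhere: Tfap2c in naive embryonic stem cells and primordial germ cells, Gata2 in blood progenitors, and Eomes in the primitive streak.

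Several of the microRNAs lost in KO cells, and some of a related cluster, share all or most of a seed (bases 2 to 8, in capitals). They are shown because the search for matches among the trophectoderm genes rests on that seed. Other products of these clusters carry other seeds, such as miR-293-3p (GUGCCGC), and matches to those were not searched. The sequences are from RefSeq on GRCm38.p6. The first 3 lines share the seed AAGUGCU, and so does the pair from the miR-302 cluster. The next pair keeps AAGUGC and differs in the last seed base.
miR-291a-3p: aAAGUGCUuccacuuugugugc
miR-294-3p: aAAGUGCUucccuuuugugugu
miR-295-3p: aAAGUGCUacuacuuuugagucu
miR-290a-3p: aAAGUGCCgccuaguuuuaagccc
miR-291b-3p: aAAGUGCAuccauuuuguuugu
miR-302b-3p: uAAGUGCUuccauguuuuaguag
miR-302d-3p: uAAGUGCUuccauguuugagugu
A transcript that pairs with AAGUGC carries GCACTT. In the longest annotated 3′ untranslated region (UTR) of each gene, 34.7% of the 12786 tested genes with such a region hold GCACTT on the sense strand, 18.3% hold AGCACTT, and 8.4% hold GCACTTA. Both longer words contain the shorter one. Of the trophectoderm genes 9 hold no GCACTT in UTRs of 894 to 1813 bases, Tfap2c (1246 bases) and Gata2 (1538 bases) among them. Plet1 holds 1, starting at base 144 of 937, and neither longer word. It is shown with the match in capitals.
Plet1: tgcaacactagtGCACTTgagggatacaaa

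The library totals lay between 8326675 and 12726123 counts, lowest in siTfap4, and levels are given as CPM, counts scaled to a common library total with TMM factors. In KO cells the plus-strand microRNA entries from Mir290a to Mir295 held 0 counts, against 88 and 39 in WT. Tfap4 had 641 and 510 counts in KO and 242 and 169 in WT, and 97 and 134 in siTfap4 against 402 and 386 in siNeg. All 12 pluripotency markers on the list were detected in every library, with a summed level of 4406 to 4571 CPM in KO, 4450 to 4879 in WT, 3664 to 3698 in siTfap4 and 4312 to 4462 in siNeg. Of 20 markers of differentiated trophoblast, 9 had 0 counts in all 8 libraries, among them the placental hormone genes Prl3d1 and Prl3b1, the syncytin genes Syna and Synb, and Tpbpa.

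KO cells had more Tfap2c and Gata2 RNA than WT cells, and siTfap4 cells had less Gata2 and Plet1 RNA than siNeg cells. In the first comparison, which asks what differs between cells without and with the cluster, 2 of 8 tested trophectoderm genes rose, 0 fell and 6 were not called. A call is an adjusted p under 0.05 in edgeR's quasi-likelihood test over all 15137 tested genes, of which 9.95% were called (5.99% higher and 3.96% lower in KO). In the second, which asks what a knockdown of Tfap4 alters in KO cells, 0 rose, 2 fell and 6 were not called. There 15.4% of all tested genes were called, 4.36% higher and 11.1% lower in siTfap4. The median log2 fold change of the 8 was 0.05 in KO against WT, beside -0.01 over all tested genes, and -0.26 in siTfap4 against siNeg, beside 0.01. Cdx2 and Elf5 had too few counts to be tested. Seen alone, the groups did not overlap for 4 of 8 genes in each comparison, where 57.5% and 58.3% of all tested genes did not overlap. As these are bulk samples, more cells expressing a gene and more RNA per cell cannot be told apart.

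**Figure D1:**
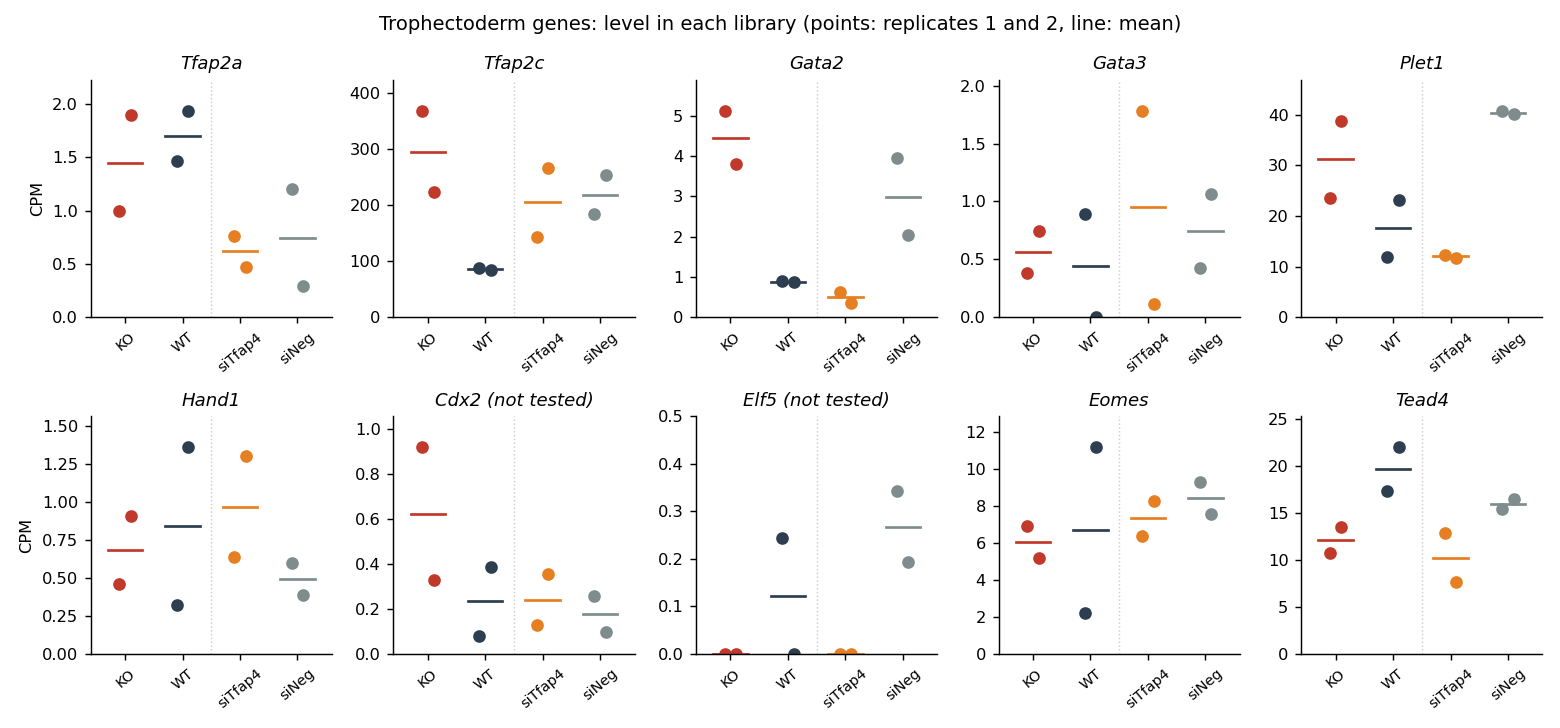
Level of each trophectoderm gene in CPM (y axis, its own scale per gene, from 0) in the 8 libraries by group (x axis), with points for replicates 1 and 2 and a line for their mean. The dotted line parts the untreated set from the siPOOL set. Both KO points lie above both WT points for Tfap2c and Gata2, and both siTfap4 points lie below both siNeg points for Gata2 and Plet1.

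Tfap2c (ENSMUSG00000028640, chromosome 2, 172549593 to 172558622, plus strand, GRCm38) encodes the AP-2 gamma factor of trophoblast and germ cell precursors. It had 4826 and 2704 counts in KO libraries against 1091 and 874 in WT libraries, or 369 and 223 CPM against 88.7 and 84.7 CPM. Both KO libraries stood above both WT libraries, and the KO pair differed more between themselves than the WT pair. The means were 296 ± 103 CPM in KO and 86.7 ± 2.79 CPM in WT (SD, n = 2 each), 3.41-fold higher in KO, with a log2 fold change of 1.77 (SE 0.31, 95% interval 1.11 to 2.43, edgeR adjusted p = 0.00173). The call held without any 1 of the 4 libraries, at log2 fold changes from 1.37 without KO replicate 1 to 2.10 without KO replicate 2. In the siPOOL set the levels were 144 and 267 CPM in siTfap4 against 184 and 253 CPM in siNeg. Those groups overlapped: the log2 fold change was -0.09 (95% interval -0.73 to 0.55, adjusted p = 0.874), which leaves room for a fall or rise of that size. With upper-quartile factors it was 0.02. All 4 siPOOL libraries are KO cells, and all 4 lay above the WT libraries, though prepared apart from them.

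Tfap2a (ENSMUSG00000021359, chromosome 13, 40715302 to 40738376, minus strand, GRCm38), the AP-2 alpha gene, known for surface ectoderm and neural crest, had at most 23 counts in a library. It had 13 and 23 counts in KO against 18 and 20 in WT, and 6 and 4 in siTfap4 against 14 and 3 in siNeg. The groups overlapped in both comparisons. The log2 fold changes were -0.23 (95% interval -1.42 to 0.95) and -0.32 (-2.13 to 1.48), and neither was called (edgeR adjusted p = 0.859 and 0.835).

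Gata2 (ENSMUSG00000015053, chromosome 6, 88193891 to 88207032, plus strand, GRCm38) encodes a zinc-finger factor that acts in trophoblast with GATA3. It had 67 and 46 counts in KO against 11 and 9 in WT libraries, or 5.12 and 3.79 CPM against 0.894 and 0.872 CPM. The means were 4.46 ± 0.94 CPM in KO and 0.883 ± 0.015 CPM in WT (SD, n = 2 each), 5.05-fold higher in KO, and the log2 fold change was 2.32 (SE 0.52, 95% interval 1.23 to 3.42, edgeR adjusted p = 0.0087). Leaving out WT replicate 1 ended the call (adjusted p = 0.0576), and so did leaving out WT replicate 2 (0.0544) or KO replicate 1 (0.0734), while the log2 fold change stayed between 2.09 and 2.53. The gene had 5 and 3 counts in siTfap4 against 46 and 21 in siNeg, or 0.637 and 0.354 CPM against 3.94 and 2.03 CPM. Both siTfap4 libraries lay below both siNeg libraries. The means were 0.495 ± 0.2 CPM in siTfap4 and 2.99 ± 1.35 CPM in siNeg (SD, n = 2 each), 6.03-fold lower in siTfap4, with a log2 fold change of -2.60 (SE 0.68, 95% interval -4.03 to -1.16, adjusted p = 0.018). Leaving out siNeg replicate 1 (adjusted p = 0.172), siTfap4 replicate 1 (0.124) or siTfap4 replicate 2 (0.0963) ended this call. So did a GC correction, which adjusts each library for the base composition of transcript ends (log2 fold change -2.06, adjusted p = 0.0523). In order of mean level the groups ran KO, siNeg, WT and siTfap4. The KO and siNeg libraries overlapped, and differences between the sets were not tested.

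Gata3 (ENSMUSG00000015619, chromosome 2, 9857078 to 9890034, minus strand, GRCm38), which encodes the GATA factor that TEAD4 switches on beside Cdx2, had 5 and 9 counts in KO against 11 and 0 in WT, and 14 and 1 in siTfap4 against 5 and 11 in siNeg. The duplicates of WT and of siTfap4 differed more than the groups did. Neither comparison was called (log2 fold change 0.20, 95% interval -2.07 to 2.48, edgeR adjusted p = 0.941, and 0.33, -1.74 to 2.41, 0.851).

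Plet1 (ENSMUSG00000032068, chromosome 9, 50494525 to 50505482, plus strand, GRCm38) encodes a membrane-anchored protein of trophectoderm, extraembryonic ectoderm and some epithelial progenitors. It had 97 and 99 counts in siTfap4 against 476 and 414 in siNeg, or 12.4 and 11.7 CPM against 40.8 and 40.1 CPM. The duplicates of both groups nearly coincided, and the groups stood far apart. The means were 12.02 ± 0.48 CPM in siTfap4 and 40.4 ± 0.51 CPM in siNeg (SD, n = 2 each), 3.36-fold lower in siTfap4, with a log2 fold change of -1.75 (SE 0.34, 95% interval -2.47 to -1.03, edgeR adjusted p = 0.00289). It was called in each of the 4 leave-outs (adjusted p 0.0145 to 0.0418). It also held with the GC correction (log2 fold change -1.23, adjusted p = 0.0306). In the untreated set Plet1 had 308 and 470 counts in KO against 147 and 239 in WT, or 23.6 and 38.8 CPM against 11.9 and 23.2 CPM. The lower KO library lay just above the higher WT library. The log2 fold change of 0.83 (SE 0.32, 95% interval 0.15 to 1.52) was not called (adjusted p = 0.12), though it was without WT replicate 2 (log2 fold change 1.38, adjusted p = 0.0426). Without WT replicate 1 or KO replicate 2 it was 0.43 and 0.44. In order of mean level the groups ran siNeg, KO, WT and siTfap4, and WT and siTfap4 overlapped.

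**Figure D2:**
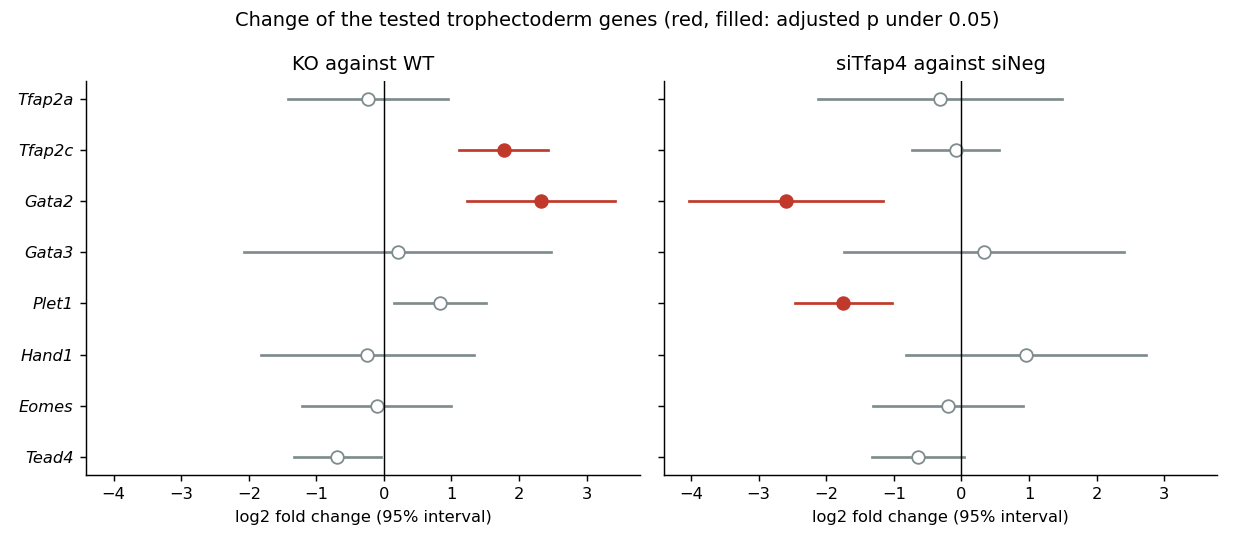
Log2 fold change (x axis) with its 95% interval for the 8 tested genes (y axis), KO against WT on the left and siTfap4 against siNeg on the right. Filled red points passed an adjusted p of 0.05. Tfap2c and Gata2 lie to the right of 0 on the left, and Gata2 and Plet1 to the left of 0 on the right.

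Tead4 (ENSMUSG00000030353, chromosome 6, 128224288 to 128300823, minus strand, GRCm38), the DNA-binding partner of YAP at the head of the programme, had 141 and 164 counts in KO against 213 and 227 in WT, or 10.8 and 13.5 CPM against 17.3 and 22.0 CPM. It had 101 and 65 counts in siTfap4 against 180 and 171 in siNeg, or 12.9 and 7.67 CPM against 15.4 and 16.6 CPM. The groups did not overlap in either comparison, with KO below WT and siTfap4 below siNeg. Neither difference was called: the log2 fold change was -0.69 (SE 0.30, 95% interval -1.34 to -0.05, edgeR adjusted p = 0.178) in the untreated set and -0.64 (SE 0.32, -1.33 to 0.04, 0.189) in the siPOOL set.

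Cdx2 (ENSMUSG00000029646, chromosome 5, 147300805 to 147307270, minus strand, GRCm38), the homeobox gene that defines the trophectoderm, had 12 and 4 counts in KO against 1 and 4 in WT, and 1 and 3 in siTfap4 against 3 and 1 in siNeg. The ETS factor gene Elf5 (ENSMUSG00000027186, chromosome 2, 103411688 to 103450989, plus strand, GRCm38), kept methylated in embryonic stem cells and needed by trophoblast stem cells, had 0 and 0 counts in KO against 3 and 0 in WT. It had 0 and 0 in siTfap4 against 4 and 2 in siNeg. At these depths 3 counts over a group correspond to 0.119 CPM in KO, 0.133 in WT, 0.184 in siTfap4 and 0.136 in siNeg, which covers counting error only. Cdx2 averaged 0.624 CPM in KO, 0.234 in WT, 0.241 in siTfap4 and 0.177 in siNeg, above that level in each group. Elf5 averaged 0.268 CPM in siNeg, above that level, and 0.122 CPM in WT, below it. Neither gene was tested, so whether they differed between groups was not judged.

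Eomes (ENSMUSG00000032446, chromosome 9, 118478212 to 118486132, plus strand, GRCm38), the T-box gene of trophoblast stem cells and the primitive streak, had 90 and 63 counts in KO against 27 and 115 in WT, or 6.88 and 5.20 CPM against 2.19 and 11.1 CPM. The WT libraries lay on either side of both KO libraries. Its log2 fold change of -0.11 (95% interval -1.21 to 1.00, edgeR adjusted p = 0.936) became 1.46 without WT replicate 2 (adjusted p = 0.112) and was 0.33 with limma-voom. In siTfap4 it had 50 and 70 counts against 108 and 78 in siNeg, with overlapping levels (log2 fold change -0.20, -1.31 to 0.91, adjusted p = 0.831). Hand1 (ENSMUSG00000037335, chromosome 11, 57828705 to 57832818, minus strand, GRCm38), the basic helix-loop-helix gene of trophoblast giant cells, had 6 and 11 counts in KO against 4 and 14 in WT, and 5 and 11 in siTfap4 against 7 and 4 in siNeg. Its log2 fold changes of -0.24 (-1.83 to 1.34, adjusted p = 0.891) and 0.95 (-0.82 to 2.73, 0.469) were not called.

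Gata2 was the sole one of the 8 tested trophectoderm genes called in both comparisons, higher in KO than in WT and lower in siTfap4 than in siNeg. On the related lists given below, Sox21, Fgfr2 and Lrp2 had the same pair of calls. Of all tested genes 117, or 0.773%, showed this pair of calls. They make up 12.9% of the 907 genes higher in KO, where 11.1% of all tested genes were lower in siTfap4. They make up 6.99% of the 1674 genes lower in siTfap4, where 5.99% of all tested genes were higher in KO. The comparisons share no library, but both were taken from 1 model over all 8 libraries with a shared estimate of the spread. Whether the response of Tfap2c to the knockdown differs from that of Gata2 was not tested.

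**Figure D3:**
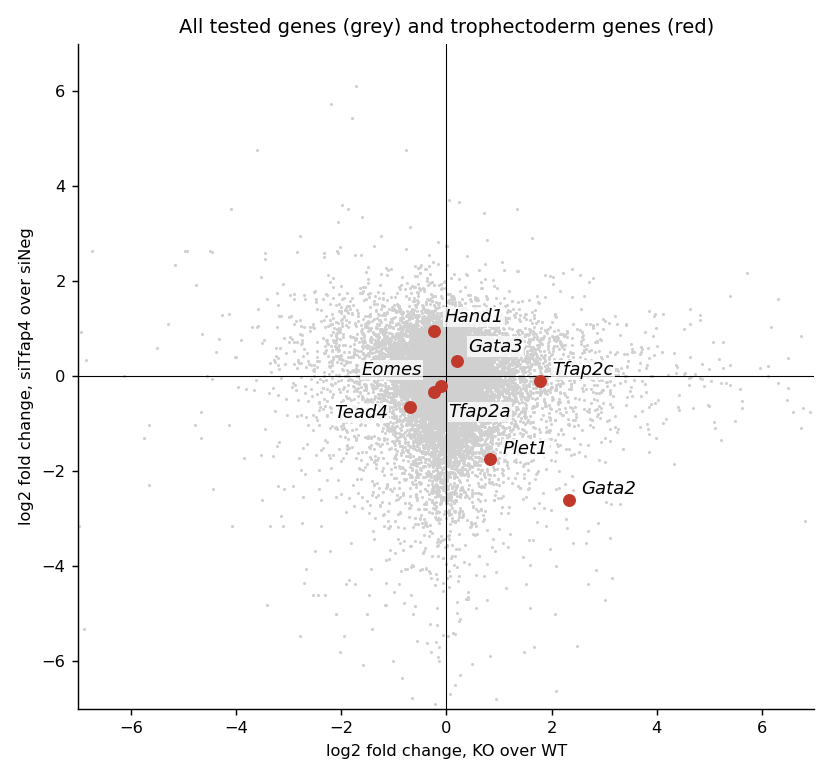
Log2 fold change of KO over WT (x axis) against that of siTfap4 over siNeg (y axis) for all tested genes (grey points) and the 8 tested trophectoderm genes (red, named). Gata2 lies at 2.32 and -2.60 and Plet1 at 0.83 and -1.75, while Tfap2c lies at 1.77 and -0.09. The axes end at 7 on either side, and 10 grey points fall outside them.

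Leaving out single libraries separated the calls. Tfap2c in KO against WT and Plet1 in siTfap4 against siNeg stayed under an adjusted p of 0.05 in each of the 4 leave-outs of their comparison. Gata2, with at most 67 counts in a library, did so in 1 of 4 leave-outs in each comparison.

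**Figure D4:**
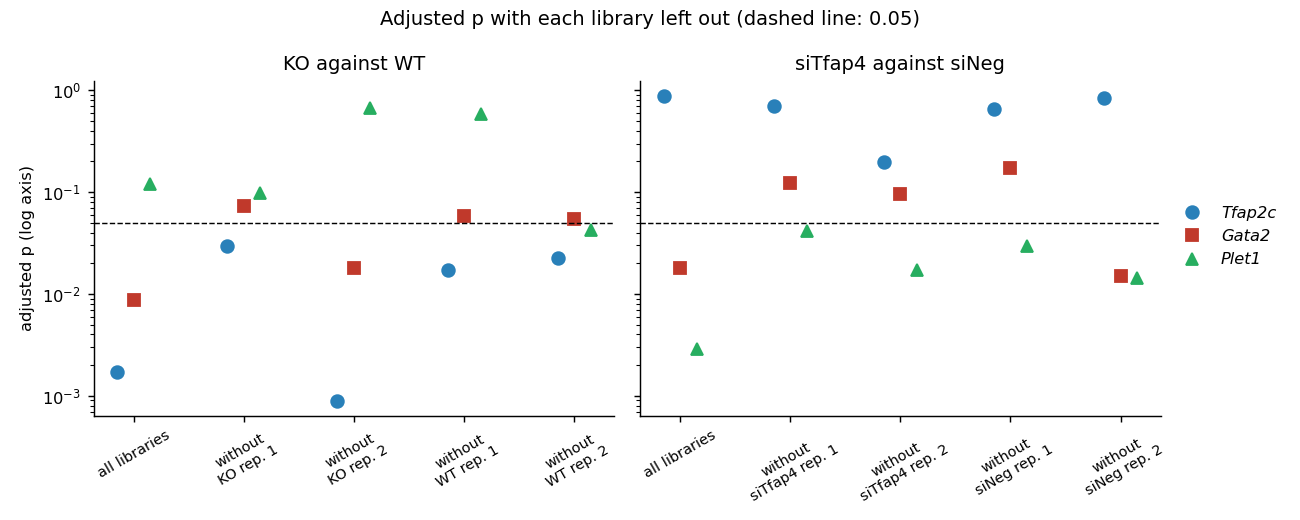
Adjusted p (y axis, log scale) of Tfap2c, Gata2 and Plet1 with all libraries and with each library of the comparison left out (x axis), KO against WT on the left and siTfap4 against siNeg on the right. The dashed line is 0.05. Tfap2c lies below it throughout on the left, Plet1 throughout on the right, and Gata2 crosses it in 3 of 4 leave-outs on each side.

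TFAP4 binds E-boxes, with CAGCTG as its core word, so the windows around the gene starts were searched for CAGCTG, which reads the same on both strands. The windows run from 250 bases before to 50 after a RefSeq start on GRCm38.p6. Of 32851 such windows 16.3% hold CAGCTG, 7.15% hold CACGTG and 72.3% hold the general form CANNTG, which includes both. Windows were found for 7 of the 10 genes, 10 windows in all, and Tfap2c, Hand1 and Tead4 were not searched. CAGCTG occurs once in 1 of the 2 Gata2 windows and once each in the Gata3, Cdx2 and upstream Elf5 windows. The Plet1 window holds 1 CANNTG and no CAGCTG, and no window held CACGTG. The matches are shown in capitals, 5′ to 3′ on the strand of the gene, because Gata2 is the gene with a match that fell in siTfap4, beside the other 3 genes with one. Of those 3, Gata3 was not called there (log2 fold change 0.33), and Cdx2 and Elf5 had too few counts to be tested. The stretches lie at chr6:88198669-88198698 (plus), chr2:9878584-9878613 (minus), chr5:147307434-147307463 (minus) and chr2:103411899-103411928 (plus).
Gata2: tgcaggagtcggCAGCTGgcgccagggcgg
Gata3: tgcgtcgcgccaCAGCTGtctgcgaacact
Cdx2: ggcctgaatattCAGCTGtgatctggtcgc
Elf5: aggtgcgggagcCAGCTGgaggctgccatt
The Gata2 match starts at base 18 of the transcript from the downstream of its starts. A match is a word in the sequence, and binding was not measured.

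Related lists were read beside the shares over all tested genes. Of those genes 5.99% rose and 3.96% fell in KO, and 4.36% rose and 11.1% fell in siTfap4. Of 18 further regulators of trophoblast progenitors 17 were tested, and 6 rose and 1 fell in KO. Their median log2 fold change was 0.26, beside -0.01 over all tested genes. The homeobox genes Rhox9 and Rhox6 stood at 85.5 ± 41.6 CPM and 121 ± 67.3 CPM in KO against 2.06 ± 1.68 CPM and 3.65 ± 1.73 CPM in WT (SD, n = 2 each). Rhox9 had a log2 fold change of 5.32 (edgeR adjusted p = 4.15e-05), which was 6.60 without WT replicate 1, 4.72 without WT replicate 2 and 4.72 without KO replicate 1. Rhox6 had one of 5.03 (adjusted p = 0.00011), which was 5.65 without WT replicate 1 and 4.32 without KO replicate 1. Fgfr2, the receptor through which FGF4 maintains trophoblast stem cells, was 5.78-fold higher in KO (24.7 ± 11.5 against 4.27 ± 1.66 CPM, adjusted p = 0.00229), and the SOX factor gene Sox21 5.90-fold (46.4 ± 11.9 against 7.87 ± 2.77 CPM, adjusted p = 0.000327). These 4 calls held in each leave-out of the comparison. The gene of this list that fell was Ascl2, at 1.87 ± 0.27 CPM in KO against 6.18 ± 0.11 CPM in WT (log2 fold change -1.72, edgeR adjusted p = 0.0135). Its call was not examined in the leave-outs.

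In siTfap4 cells 0 of the 17 rose and 3 fell, beside 4.36% and 11.1% of all tested genes. Their median was -0.13, beside 0.01 over all tested genes. The zinc-finger gene Zfp281 fell to 40.8 ± 13.2 CPM in siTfap4, against 145 ± 30.6 CPM in siNeg (log2 fold change -1.82, edgeR adjusted p = 0.000348), a call held in each leave-out. Fgfr2 had 7.88 ± 5.37 CPM in siTfap4 and 23.8 ± 2.64 CPM in siNeg (log2 fold change -1.59, adjusted p = 0.0241). Its call ended on leaving out siNeg replicate 1 (0.154), siNeg replicate 2 (0.0595) or siTfap4 replicate 1 (0.262), and under the GC correction (0.0705), and its log2 fold change was -2.56 without siTfap4 replicate 2. Sox21 had 4.05 ± 1.94 CPM in siTfap4 and 10.9 ± 4.01 CPM in siNeg (log2 fold change -1.42, adjusted p = 0.0337). That call ended on leaving out siNeg replicate 1 (0.285) or siTfap4 replicate 1 (0.329), under the GC correction (0.0583) and under limma-voom (0.0561), and the log2 fold change was -2.04 without siTfap4 replicate 2.

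Of 24 tested genes of the trophectoderm epithelium, on a list of 25, 8 rose and 0 fell in KO, with a median of 0.31. The tetraspanin gene Tspan8 was 6.66-fold higher in KO (16.5 ± 1.87 against 2.48 ± 1.43 CPM, edgeR adjusted p = 0.000373), with a log2 fold change of 2.76 that became 3.49 without WT replicate 2. The WNT ligand gene Wnt7b was 4.41-fold higher (15.4 ± 5.23 against 3.50 ± 2.07 CPM, adjusted p = 0.00396), at 2.11 and at 2.92 without WT replicate 1. The galectin gene Lgals3 had a log2 fold change of 1.53 (adjusted p = 0.0017). These 3 calls held in each leave-out of the comparison. In siTfap4 cells 0 of the 24 rose and 1 fell, with a median of -0.11. This was Lrp2, the endocytic receptor megalin, at 15.0 ± 5.41 CPM in siTfap4 against 40.4 ± 16.2 CPM in siNeg (adjusted p = 0.00806), a call that ended on leaving out siNeg replicate 1 (0.129) or siTfap4 replicate 2 (0.0521). Lrp2 was also among the genes that rose in KO (log2 fold change 1.08, edgeR adjusted p = 0.0373), a call not examined in the leave-outs.

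Markers of differentiated trophoblast were mostly at or near 0. Of 20 genes 8 were tested, and 0 rose and 1 fell in KO, with a median of -0.71. Phlda2, an imprinted gene that restrains placental growth, stood at 24.6 ± 1.2 CPM in KO against 130 ± 49.8 CPM in WT (log2 fold change -2.41, edgeR adjusted p = 0.000192), a call held in each leave-out. In siTfap4 1 rose and 0 fell, with a median of 0.29. This was the steroidogenic enzyme gene Cyp11a1 (log2 fold change 1.63, adjusted p = 0.0297), a call that ended on leaving out siNeg replicate 1 (0.223), siNeg replicate 2 (0.0558) or siTfap4 replicate 1 (0.253) and under the GC correction (0.0649).

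**Figure D5:**
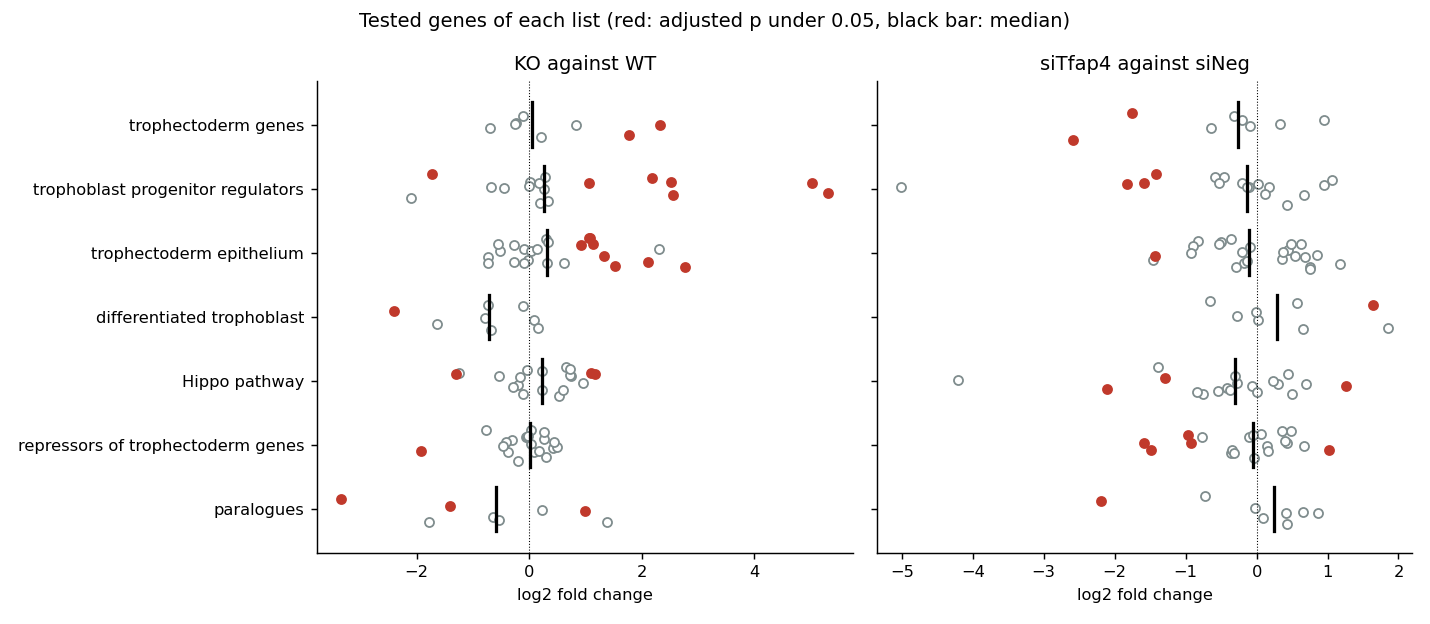
Log2 fold change (x axis) of each tested gene of the trophectoderm genes and 6 related lists (y axis, points spread for sight), KO against WT on the left and siTfap4 against siNeg on the right, each panel with its own x scale. Red points passed an adjusted p of 0.05 and black bars are medians. In KO against WT 8 red points of the trophectoderm epithelium lie to the right of 0 and none to the left.

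The Hippo pathway sets the activity of TEAD4. Of 19 tested members of 20, 2 rose and 1 fell in KO, with a median of 0.23. The risers were Nf2, an upstream activator of the kinases (log2 fold change 1.10, edgeR adjusted p = 0.00427), and Wwtr1, the coactivator TAZ (1.16, adjusted p = 0.00502). Nf2 was not called on leaving out WT replicate 1 (0.0522) or KO replicate 2 (0.054), nor Wwtr1 on leaving out WT replicate 1 (0.0774). The angiomotin gene Amot fell (-1.30, adjusted p = 0.0449), a call that ended on leaving out any 1 of the 8 libraries (0.0522 to 0.295), with DESeq2 (0.0694) and with limma-voom (0.0562). In siTfap4 1 rose and 2 fell, with a median of -0.30. The coactivator gene Yap1 fell to 73.5 ± 38.3 CPM in siTfap4, against 180 ± 13.02 CPM in siNeg (-1.29, adjusted p = 0.00852), at -1.97 without siTfap4 replicate 2 and not called without siTfap4 replicate 1 (0.097). The scaffold gene Sav1 fell by 2.11 on the log2 scale (adjusted p = 0.00245), and Vgll4, a TEAD cofactor that competes with YAP, rose by 1.26 on that scale (adjusted p = 0.00782). Sav1 was not called on leaving out siTfap4 replicate 1 (0.0628), nor Vgll4 on leaving out siNeg replicate 1 (0.0857) or siTfap4 replicate 1 (0.121).

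Among 20 factors known to hold trophectoderm genes down in the inner cell mass or in embryonic stem cells, all of which were tested, 0 rose and 1 fell in KO, with a median of 0.01. This was Dnmt3l, a cofactor of de novo DNA methylation (63.5 ± 0.25 CPM in KO against 241 ± 41.1 CPM in WT, edgeR adjusted p = 0.000125), a call held in each leave-out. In siTfap4 1 rose and 4 fell, with a median of -0.05. On the log2 scale Nanog fell by 1.49 (adjusted p = 0.00403) and Eed, a subunit of the Polycomb complex PRC2, by 1.59 (adjusted p = 0.00421). Without siTfap4 replicate 2 these values were -2.20 and -2.40, and Nanog was not called without siNeg replicate 1 (0.0577). Uhrf1, needed for maintenance methylation, fell by 0.96 (adjusted p = 0.0132), and Pou5f1 rose by 1.02 (adjusted p = 0.0121). The Uhrf1 and Pou5f1 calls ended on leaving out siNeg replicate 1 (0.0869 and 0.0934) or siTfap4 replicate 1 (0.138 and 0.114).

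Of 17 paralogues of the 10 genes 8 were tested, and the AP-2 gene Tfap2d and the gene Hand2 had 0 counts throughout. In KO 1 rose and 2 fell, with a median of -0.60. Gata6, the GATA factor of primitive endoderm, was lower in KO: 1.36 ± 0.52 CPM against 13.8 ± 2.66 CPM in WT (log2 fold change -3.34, edgeR adjusted p = 0.000166), held in each leave-out. In the siPOOL set it was not called, at 0.913 CPM in siTfap4 against 0.842 CPM in siNeg (log2 fold change 0.09, adjusted p = 0.948). Cdx1 fell in KO (-1.42, adjusted p = 0.0228) and the ETS gene Elf1 rose (0.99, adjusted p = 0.0237). The Cdx1 call rested on WT replicate 2 (0.238 on leaving it out), KO replicate 1 (0.111) and KO replicate 2 (0.17), and the Elf1 call on all 4 libraries (0.0555 to 0.26). In siTfap4 0 rose and 1 fell, with a median of 0.25. This was Cdx1 (-2.20, adjusted p = 0.0261), a call that ended in each of the 4 leave-outs (0.0559 to 0.261) and under the GC correction (0.0706).

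Markers of other lineages were read in the same libraries. Endoderm markers summed to 25.3 to 27.8 CPM in KO against 181 to 188 CPM in WT, and 9 of 12 tested fell and 0 rose in KO, with the lowest adjusted p in Dab2, Col4a1, Gata6 and Lama1 (log2 fold changes -4.39, -3.96, -3.34 and -2.25). In the siPOOL set they summed to 39.7 to 60.1 CPM in siTfap4 and 31.7 to 43.7 CPM in siNeg, with 0 called by edgeR. The most abundant, Lama1 and Col4a1, had log2 fold changes of 0.68 (adjusted p = 0.13) and -0.21 (0.81) there. Mesoderm and streak markers, which bear on Eomes and Hand1, summed to 5.53 to 5.66 CPM in KO, 3.30 to 11.2 CPM in WT, 4.25 to 4.59 CPM in siTfap4 and 4.71 to 5.52 CPM in siNeg. Of 11, 2 were tested and 0 called, and Hand2 and Foxf1 were at 0 in all libraries. Those 2, Kdr and Evx1, had log2 fold changes of -1.20 and 0.98 in KO against WT and of -0.39 and -0.37 in siTfap4 against siNeg. Kdr was called without WT replicate 2 (-1.98, adjusted p = 0.034). Evx1 in KO against WT ran from 0.11 without WT replicate 2 to 6.22 without WT replicate 1, where the remaining WT library held 0 counts.

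Germ cell markers, which bear on Tfap2c, summed to 226 to 286 CPM in KO, 177 to 249 CPM in WT, 80.8 to 99.3 CPM in siTfap4 and 150 to 173 CPM in siNeg, with none at 0. In KO 2 of 8 rose and 1 fell. Prdm1, a regulator of germ cell precursors that also acts in trophoblast, was 4.56-fold higher in KO (edgeR adjusted p = 0.000277, held in each leave-out). Nanos3 rose by 2.56 on the log2 scale (adjusted p = 0.0143) and Dazl was 3.49-fold lower in KO (adjusted p = 0.00427). Nanos3 was at 3.41 without WT replicate 1 and was not called on leaving out WT replicate 2 (0.113) or KO replicate 1 (0.12), nor Dazl on leaving out WT replicate 2 (0.0654). In siTfap4 1 of 8 fell, Kit (-1.18, adjusted p = 0.0152), a call that ended on leaving out siNeg replicate 1 (0.16) or siTfap4 replicate 1 (0.137) and under the GC correction (0.0968). Fibroblast markers summed to 255 to 341 CPM in KO, 229 to 233 CPM in WT, 100 to 107 CPM in siTfap4 and 272 to 326 CPM in siNeg. Most of that was Vim, which embryonic stem cells also express, at 95.6 ± 2.87 CPM in siTfap4 against 288 ± 37.1 CPM in siNeg (log2 fold change -1.59, adjusted p = 0.000355, held in each leave-out). Col3a1 and Postn were at 0. Of 3 tested, 2 fell in KO: Thy1 by 1.35 on the log2 scale (adjusted p = 0.0244) and Col1a1 by 2.20 (0.0432). Col1a1 was not called in any leave-out of the series, nor Thy1 on leaving out WT replicate 2 (0.257) or KO replicate 1 (0.285), and Thy1 was at -1.95 without KO replicate 2. The part of any of these markers in the differences of the trophectoderm genes was not tested.

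Of 12 pluripotency markers 1 rose and 2 fell in KO, and 2 rose and 2 fell in siTfap4. Klf4 was 3.02-fold lower in KO (140 against 423 CPM, edgeR adjusted p = 0.00103, held in each leave-out). On the log2 scale Utf1 fell by 0.92 (adjusted p = 0.0132) and Fgf4, the ligand of FGFR2 in the early embryo, rose by 0.80 (0.0433), and both calls ended in each of the 4 leave-outs (0.0648 to 0.227 and 0.131 to 0.313). The Fgf4 call also ended with upper-quartile factors (0.0637). Dppa5a stood at 6.57 ± 3.89 CPM in siTfap4 against 440 ± 74.7 CPM in siNeg (log2 fold change -6.05, adjusted p = 1.39e-07, and -6.86 without siTfap4 replicate 2). Dppa4 rose by 0.78 on the log2 scale (adjusted p = 0.0273), a call that ended on leaving out siNeg replicate 1 (0.132), siNeg replicate 2 (0.0549) or siTfap4 replicate 1 (0.222), as well as KO replicate 1 (0.0666) or KO replicate 2 (0.067), and in a fit of the siPOOL set alone (0.106).

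The genes whose level most resembled that of Tfap2c over the 8 libraries were Cuedc1 (Pearson's r 0.98), Rims1 (0.97), Klhl21 (0.97), Eps15 (0.97) and Rmnd5b (0.97), out of 10328 genes with a mean of at least 5 CPM. The libraries share groups and sets, so these values describe the ranking and carry no p. Klhl21, for one, averaged 71.4 CPM in KO, 28.2 in WT, 48.9 in siTfap4 and 55.2 in siNeg, and Tfap2c averaged 296, 86.7, 206 and 219 CPM in the same groups. In both genes all 3 groups of KO cells had a higher mean than WT, though the siPOOL set was prepared apart. Klhl21 was chosen for its likeness to Tfap2c over these same libraries, so the shared order is no separate evidence.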

How the data were processed

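The authors deposited whole-number read counts per Ensembl gene for 8 libraries made with the QuantSeq 3′ FWD kit, per the labels' protocols. Trim Galore and the build GRCm38 are named in the submitters' processing notes. The aligner, counter and strand setting, like the annotation behind the counts, are things not given in the sources used here. Symbols, positions and 3′ UTRs came from GENCODE M21 (GRCm38), and 55154 of 55421 identifiers had a symbol. Overlapping genes on the other strand of a trophectoderm gene held at most 2 counts in a library.

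These deposited counts were modelled in R 4.3.3 with edgeR 4.0.16: filterByExpr (15137 genes), TMM, a robust quasi-likelihood model with 4 group means over all 8 libraries (4 residual degrees of freedom) and Benjamini-Hochberg adjustment. A comparison thus borrows the spread of libraries outside it. P-values measure the spread between duplicates. No duplicates agreed within counting noise, with chi-square values of 11.3 (KO), 18.9 (WT), 30.5 (siTfap4) and 37.7 (siNeg) for each degree of freedom. Folds are ratios of group means in CPM, and log2 fold changes are fitted.

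The 10 genes and the lists were chosen with earlier results of these data known. The text names all 10, and up to 4 called genes per further list and comparison, with Ascl2 added to them. A further gene chosen in this way is not reported here. A marker list with no call gives its 2 most abundant genes instead, and the 5 genes most like the most abundant called trophectoderm gene are given. Alternatives were DESeq2 1.42.0, limma-voom (limma 3.58.1), upper-quartile factors, 2 filters, a fit of 4 libraries alone, a threshold of 0.1, a block for the replicate number, and leaving out single libraries. A GC correction, a lowess curve (span 0.3) over the GC share of the last 100 bases of a transcript, was chosen after seeing the data.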

Additional observations from a re-analysis of the deposited data

How the results depend on the processing

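In KO against WT 2 trophectoderm genes were called, both higher, with DESeq2, limma-voom, upper-quartile factors, either filter, a fit of the 4 libraries alone, the threshold of 0.1, the replicate block and the GC correction. Leaving out single libraries gave 1 to 2, and without WT replicate 2 the pair was Tfap2c and Plet1. In siTfap4 against siNeg 2 were called, both lower, under the same alternatives except the GC correction (1), and 1 to 2 in the leave-outs. Replicate numbers were not taken as a pairing, since deviations of same-numbered libraries had a correlation of -0.06 in the untreated and 0.13 in the siPOOL set. The title tag shared in the untreated set joins KO replicate 2 with WT replicate 1, which the replicate block does not pair. A block for that tag was not fitted, so its part in the differences was not tested. With the replicate block 1337 and 2064 genes were called, beside 1506 and 2334 without it, and of the trophectoderm genes' calls none changed. The block ended the calls of Sox21 in siTfap4 against siNeg (adjusted p = 0.0517) and of Amot, Fgf4 and Col1a1 in KO against WT (0.0607, 0.064 and 0.0758).

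Over all genes, leaving out 1 of the 4 libraries compared gave 629 (KO replicate 1), 699 (KO replicate 2), 786 (WT replicate 2) and 880 calls (WT replicate 1) in KO against WT, and leaving out a siPOOL library gave 1393 to 1566. In siTfap4 against siNeg there were 763 without siNeg replicate 1, 522 without siTfap4 replicate 1, 1978 without siNeg replicate 2 and 2961 without siTfap4 replicate 2, and 1811 to 2302 without an untreated library. Upper-quartile factors moved the median of all genes by 0.11 there and gave 1127 higher and 1442 lower genes, beside 660 and 1674 with TMM.

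Some log2 fold changes of genes that were not called changed sign. In KO against WT Eomes was 0.33 with limma-voom and 0.10 with the replicate block. In siTfap4 against siNeg Tfap2c was 0.022 with upper-quartile factors, Gata3 was -0.36 and Col4a1 0.024 with limma-voom, and Tfap2a was 0.070 and Eomes 0.050 with the GC correction. Over the leave-outs in KO against WT Tfap2a ran from -0.75 to 0.17, Gata3 from -0.67 to 5.58 (the remaining WT library held 0 counts), Hand1 from -0.98 to 1.03, Eomes from -0.87 to 1.46 and Kdr from -1.98 to 1.04. In siTfap4 against siNeg Tfap2a ran from -0.97 to 1.03, Tfap2c from -0.62 to 0.28, Gata3 from -2.53 to 1.26, Col4a1 from -0.88 to 1.10, Kdr from -1.82 to 0.26 and Evx1 from -2.39 to 0.47. The cause of these changes was not tested.

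With 2 libraries a group and at most 23 counts in a library, the precision for Tfap2a, Gata3, Hand1, Cdx2 and Elf5 is low: the 95% intervals of the first 3 reach from a fall to a rise in both comparisons, and Cdx2 and Elf5 had no test.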
